A study of Danio rerio with 170 samples.

Results

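The oxygenated polycyclic aromatic hydrocarbons 9,10-phenanthrenequinone (9,10-PQ, 1.2 µM) and benzanthrone (BEZO, 10 µM) were followed in zebrafish embryos at 48 hpf. They were taken as the columns that the labels give to these chemicals in the study named PE50_BG, which came to 10 of the 170 sample entries and, with each lane and index combination averaged to a single library, to 5 of 144 libraries: 3 of 9,10-PQ and 2 of BEZO. They were compared with the 3 DMSO libraries of the same study, which carried the vehicle at 1%. BEZO was also compared with 7,12-B[a]AQ (benz[a]anthracene-7,12-dione, 10 µM, 3 libraries), the other oxygenated chemical of that study and the single chemical there at a matched dose and time. Whole wildtype embryos of the Tropical 5D line were used, so a change can come from fewer cells of a type or from less RNA per cell, and these cannot be told apart. For 9,10-PQ the methods give vials of 20 embryos exposed from 6 hpf, and nothing in the labels says that the libraries of a group came from separate clutches, so p-values measure the spread between these libraries.

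Polycyclic aromatic hydrocarbons with added oxygen differ in how they are handled by the embryo. The aryl hydrocarbon receptor (AHR) is a transcription factor that binds many planar aromatic chemicals, pairs with Arnt and switches on the CYP1 enzymes, which oxidize those chemicals, and its own repressor, Ahrr. Quinones can also take up and pass on electrons, form reactive oxygen species and bind thiols, which releases the transcription factor Nrf2 from Keap1 and raises glutathione and thioredoxin enzymes. BEZO carries a single ketone on its ring system, whereas 9,10-PQ and 7,12-B[a]AQ carry a pair of them and are quinones.

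Of these chemicals, the 5 libraries held 6795594 to 20116214 reads, and both ends of that range were 9,10-PQ libraries (library 2 was the shallowest, library 1 the deepest). The BEZO and DMSO libraries were all sequenced in lane 1, 7,12-B[a]AQ in lanes 1 and 2, and 9,10-PQ in lanes 2 (library 1) and 3 (libraries 2 and 3). Lane 3 held no other library of the study, so a fit with lane as a block rests for 9,10-PQ on library 1 alone, set against DMSO through the 7,12-B[a]AQ library of lane 2. For BEZO against DMSO, both in lane 1, the block leaves the fold changes as they are and alters only the estimated spread. Levels are given as normalized counts, which are reads scaled for depth, in order of library number. Fold changes are on the log2(value + 1) scale with the standard error (SE), and adjusted p-values are from limma. A gene rose or fell where the adjusted p was under 0.05, and it was a differentially expressed gene (DEG) where the log2 fold change also exceeded 1 in size. 9,10-PQ gave 144 DEGs against DMSO (80 higher, 64 lower, 0.659% of 21854 genes), or 90 without 9,10-PQ library 1 and 95 without library 3. Each of the 144 also sets lanes 2 and 3 against lane 1. On the deposited log2 values, 9,10-PQ gave 80 higher and 24 lower. At an adjusted p under 0.05 alone, 6.22% of genes changed with 9,10-PQ (2.84% rose and 3.38% fell) and 3.45% with BEZO (1.69% rose and 1.75% fell), and the libraries did not overlap those of DMSO for 25.2% and 34.8% of genes. These last shares cannot be compared with each other, because 2 BEZO libraries stay clear of the DMSO range more easily than 3 libraries do. BEZO gave 173 DEGs (79 higher, 94 lower, 0.792% of genes, with 0.430% lower), or 108 without BEZO library 1 and 99 without library 2. A second DMSO group, 3 libraries of the PE50_AK study at the same DMSO percentage, served as another control. All 3 were labelled lane 3, whereas the DMSO libraries of PE50_BG were in lane 1, so study and lane number change together with this control. Against this group 9,10-PQ had 579 DEGs, 49 of them shared with the 144, and BEZO had 408, 74 of them shared with the 173. Of the 22 genes that the naming rule ranked for each exposure, 13 passed against it with 9,10-PQ and 15 with BEZO.

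The CYP1 genes rose with both exposures, and far less than with 7,12-B[a]AQ at 10 µM. That dose was shared by BEZO, whereas 9,10-PQ was given at 1.2 µM and was not tested against 7,12-B[a]AQ. Of the 4 CYP1 genes measured, 3 rose with 9,10-PQ (2.84% of all genes) and 3 rose with BEZO (1.69% of all genes). cyp1a, the classic AHR target, was at 70.33, 46.49 and 65.26 in DMSO, at 128, 161 and 142 with 9,10-PQ, at 237 and 209 with BEZO, and at 13801, 13566 and 12208 with 7,12-B[a]AQ. The 4 groups did not overlap. The log2 fold change against DMSO was 1.25 (SE 0.12, adjusted p = 7.38e-06) for 9,10-PQ and 1.88 (SE 0.14, adjusted p = 4.99e-08) for BEZO. In the 3 other DMSO libraries cyp1a stood at 112, 80.7 and 184, a range that holds every 9,10-PQ library, and against them the change was 0.27 for 9,10-PQ (adjusted p = 0.358) and 0.90 for BEZO (adjusted p = 0.00851).

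cyp1c1, a second inducible CYP1 enzyme, was at 175, 217 and 237 in DMSO, at 242, 270 and 277 with 9,10-PQ, and at 469 and 426 with BEZO, and the BEZO libraries were above all others but those of 7,12-B[a]AQ (5329 to 5721). Its log2 fold change was 0.34 (adjusted p = 0.0442) with 9,10-PQ and 1.102 (adjusted p = 2.33e-06) with BEZO. cyp1c2 was at 46.3, 48.9 and 52.1 in DMSO, at 80.3, 111 and 98.7 with 9,10-PQ and at 100 and 101 with BEZO, so that both treated groups lay at about the same level. Against the other DMSO group cyp1c2 passed the test for neither exposure (adjusted p = 0.618 and 0.589), and cyp1c1 passed it for BEZO (adjusted p = 5.12e-05) and not for 9,10-PQ (adjusted p = 0.396). cyp1d1, which is not induced by AHR ligands in zebrafish, differed by 0.15 and 0.14 with adjusted p-values of 0.486 and 0.696. cyp1c1 and cyp1c2 are close copies of each other, so reads could be split between them unevenly.

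**Figure D1:**
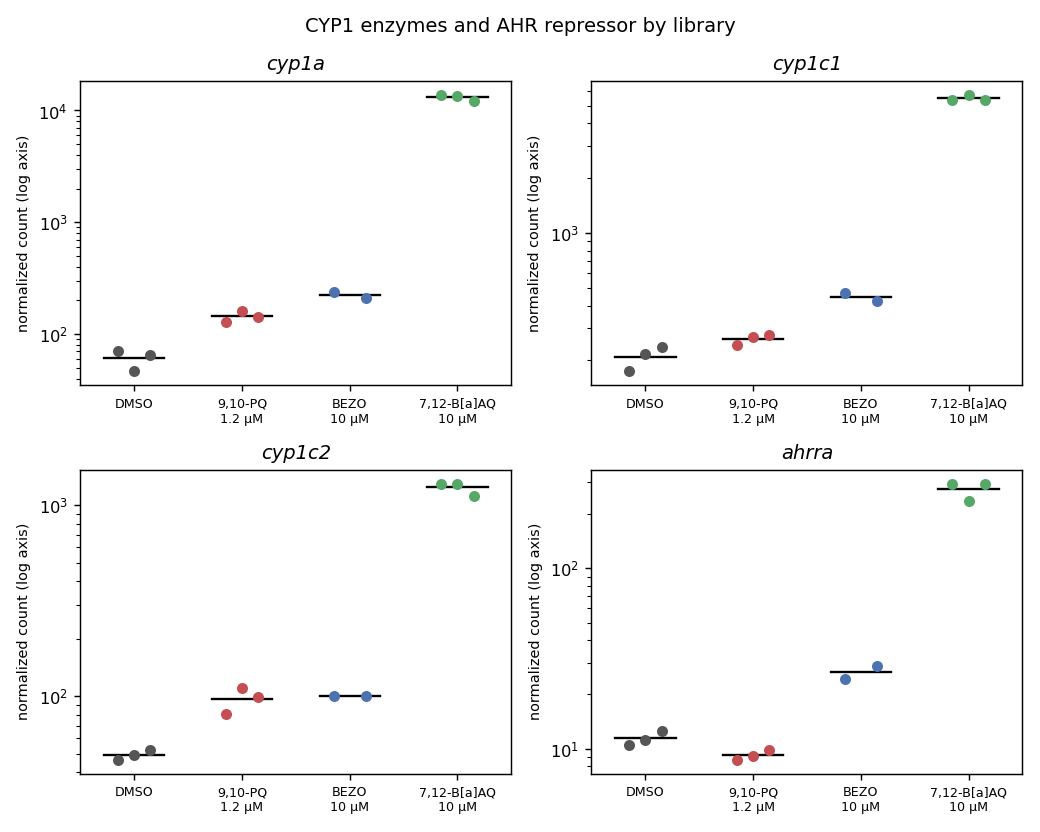
Normalized count (log axis) of 3 CYP1 enzymes and the AHR repressor ahrra in each library of DMSO, 9,10-PQ (1.2 µM), BEZO (10 µM) and 7,12-B[a]AQ (10 µM), points being libraries and lines group means. cyp1a lies at 46.49 to 70.33 in DMSO, 128 to 161 with 9,10-PQ, 209 to 237 with BEZO and at 12208 or more with 7,12-B[a]AQ, while ahrra is raised by BEZO and not by 9,10-PQ.

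Around the receptor itself, the exposures differed in the repressor. ahrra, which blocks AHR at its DNA sites, was at 10.5, 11.1 and 12.6 in DMSO, at 24.4 and 28.6 with BEZO, and at 8.66, 9.07 and 9.79 with 9,10-PQ, where every library lay below every DMSO library. It rose with BEZO (1.15, SE 0.25, adjusted p = 0.0115) and not with 9,10-PQ (-0.28, SE 0.22, adjusted p = 0.519). The BEZO call was lost with the other DMSO group (0.68, adjusted p = 0.579), 1 library of which held ahrra at 100 against 5.24 and 6.94 in the others. ahr2, the main AHR of the zebrafish embryo, rose with 9,10-PQ (0.29, SE 0.08, adjusted p = 0.028) and had the same shift with BEZO without passing (0.28, SE 0.09, adjusted p = 0.0841). The 9,10-PQ rise of ahr2 passed in 1 of the 6 fits that left out a library. It did not pass with lane as a block (0.16) and passed against the other DMSO group (0.41, adjusted p = 0.00102). ahr1b fell with BEZO (-0.67, adjusted p = 0.000562), from 450 to 507 in DMSO to 318 and 293, and did not pass against the other DMSO group (-0.26, adjusted p = 0.189). Of the 8 receptors, partners and repressors, 1 rose (2.84% of all genes) and 7 did not pass with 9,10-PQ. With BEZO 1 rose (1.69%) and 1 fell (1.75%).

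The 14 AHR2-linked genes were mostly named by the study from these samples and so are no independent evidence. Of them, 2 fell with 9,10-PQ (3.38% of all genes), and 1 rose (1.69%) and 2 fell (1.75%) with BEZO. sult6b1, a sulfotransferase, was the gene that rose with BEZO: 456, 433 and 452 in DMSO against 822 and 766, with 571, 482 and 581 for 9,10-PQ. The long noncoding RNA slincR (LOC110366352) fell with 9,10-PQ, from 141, 156 and 117 to 88.0, 83.4 and 84.2 (-0.68, SE 0.14, adjusted p = 0.00476), and stood at 189 and 158 with BEZO (0.33, adjusted p = 0.306). gng13b, a G-protein gamma subunit, fell with both, by 0.71 with 9,10-PQ and 0.91 with BEZO. It is counted in the falls of the list, but the paper places it outside its AHR2 network module and calls its role in chemical exposure unknown.

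The Nrf2 and glutathione genes rose widely with BEZO and little with 9,10-PQ. Of 31 measured, 12 rose with BEZO (1.69% of all genes) and 19 did not pass, with a median log2 fold change of 0.30. Of the 12, 7 were higher DEGs (0.361% of all genes). With 9,10-PQ 4 rose (2.84% of all genes), by less than a DEG requires, and the median was 0.14. The 9,10-PQ count fell to 1 without DMSO library 3 or without 9,10-PQ library 1 or 3, and the BEZO count was 8 without BEZO library 1 and 7 with both DMSO groups pooled. The median over all genes was 0.02 for BEZO and -0.01 for 9,10-PQ. gstp1.2, the glutathione transferase that conjugates electrophiles, was at 1394, 1287 and 1250 in DMSO, at 3592 and 3091 with BEZO, and at 1653, 1520 and 1656 with 9,10-PQ. The BEZO change was 1.35 (SE 0.08, adjusted p = 3.35e-09), and that of 9,10-PQ was 0.30 (SE 0.07, adjusted p = 0.019), which did not pass against the other DMSO group (adjusted p = 0.185).

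Several further genes rose with BEZO by a comparable size. prdx1, a peroxiredoxin that reduces peroxides, was at 425, 354 and 452 in DMSO and at 915 and 825 with BEZO (1.09, SE 0.10, adjusted p = 8.04e-07). gsr, which regenerates reduced glutathione, was at 62.6, 65.3 and 88.5 in DMSO and at 173 and 157 (1.20, SE 0.16, adjusted p = 0.000111). cbr1l, a carbonyl reductase, a family that reduces ketones and quinones, was at 276, 210 and 238 in DMSO and at 539 and 527 (1.15, SE 0.12, adjusted p = 4.08e-06). aifm4 was at 204, 259 and 212 in DMSO and at 515 and 530 (1.22, SE 0.12, adjusted p = 1.62e-06). For gstp1.2, prdx1, gsr, cbr1l and aifm4 the call against DMSO held under each of the 19 alternative settings run, the other DMSO group included.

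In the 9,10-PQ libraries prdx1 was at 456, 461 and 435 and cbr1l at 340, 294 and 290. Their log2 fold changes were 0.14 (95% interval -0.04 to 0.32) and 0.36, with adjusted p-values of 0.391 and 0.0513. Against the other DMSO group prdx1 rose with 9,10-PQ (0.49, adjusted p = 0.00636), and 8 of the 31 genes rose. More of all genes changed there too, with 364 higher DEGs for 9,10-PQ against 80 in the main fit. nfe2l2a, which encodes Nrf2 itself, was at 985, 924 and 926 in DMSO, at 1291, 1387 and 1300 with 9,10-PQ and at 911 and 923 with BEZO. It rose with 9,10-PQ (0.49, SE 0.07, adjusted p = 0.000412) and not with BEZO (-0.04, SE 0.08, adjusted p = 0.877). Its second copy nfe2l2b rose with BEZO, from 18.6 to 29.7 in DMSO to 47.4 and 60.6 (1.16, SE 0.26, adjusted p = 0.0129), a call lost with the other DMSO group.

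The rest of the BEZO group were keap1a (0.73) and keap1b (0.56), which encode the sensor that holds Nrf2 in check, sqstm1 (0.75), an autophagy adaptor, tktb (0.54), a transketolase of the pentose phosphate pathway, gclc (0.38), the catalytic subunit of glutathione synthesis, and gstp1.1, which was at 4.41 to 5.98 in DMSO and at 27.6 and 19.9 with BEZO. gclc passed in 0 of the 5 limma fits that left out a library (adjusted p = 0.0705 to 0.399), and against the other DMSO group tktb (0.11, adjusted p = 0.586) and gstp1.1 (0.52, adjusted p = 0.466) did not pass. Several textbook members of the pathway did not pass. hmox1a, heme oxygenase, was at 266, 432 and 313 in DMSO and at 435 and 521 with BEZO (0.53, SE 0.15, adjusted p = 0.0518). With lane as a block hmox1a had the same change, because BEZO and DMSO share lane 1. It passed there through a smaller SE alone (0.13, adjusted p = 0.0148). Against the other DMSO group it rose with both exposures, by 1.44 with BEZO (adjusted p = 6.25e-05) and by 1.07 with 9,10-PQ (adjusted p = 0.000258). nqo1, which reduces quinones, differed from DMSO by 0.00 with BEZO (95% interval -0.23 to 0.23) and by -0.01 with 9,10-PQ (95% interval -0.22 to 0.19). gclm and srxn1 passed with neither exposure, with log2 fold changes of -0.20 to 0.02.

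**Figure D2:**
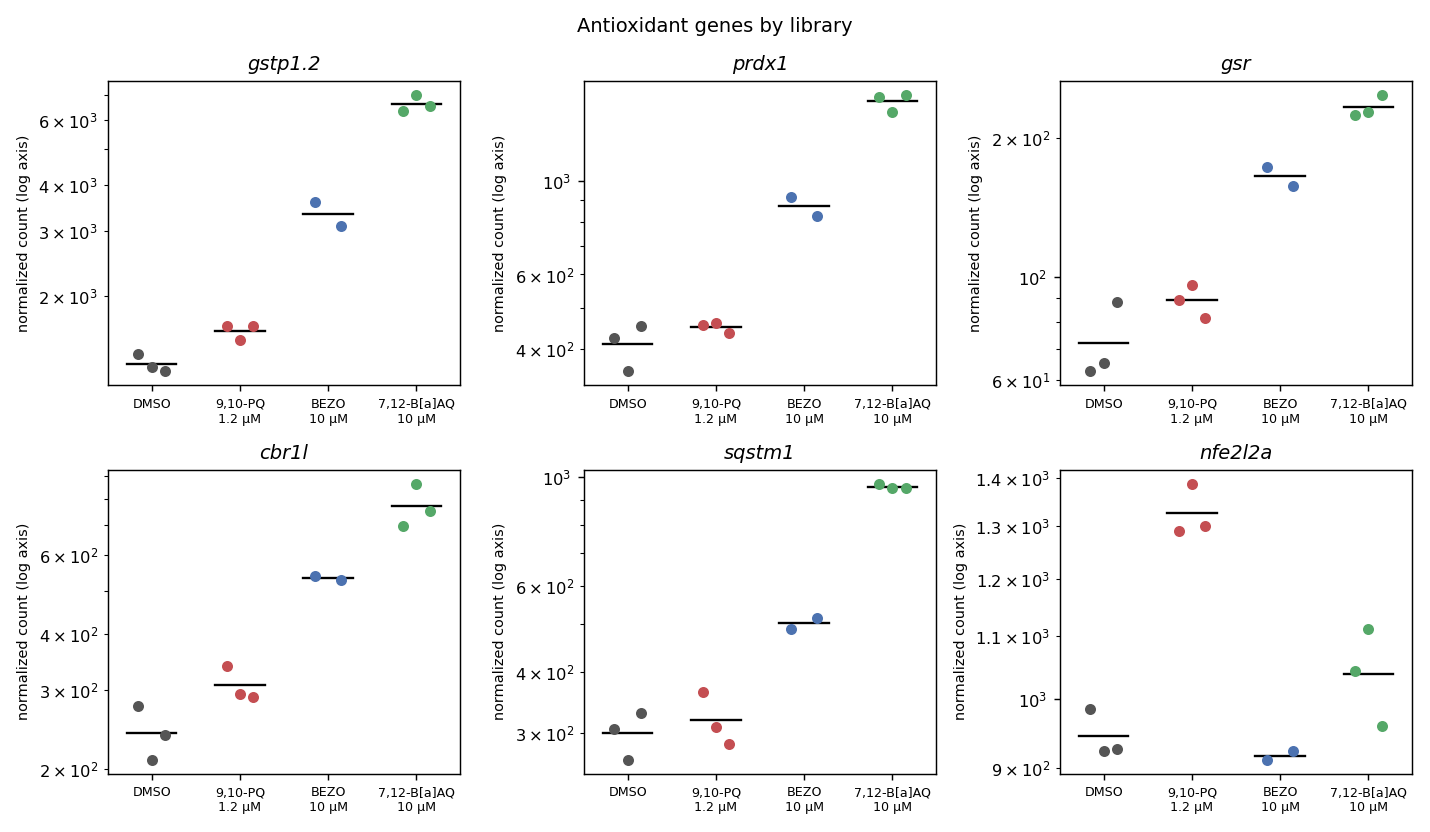
Normalized count (log axis) of 6 genes of the Nrf2 pathway in each library of the 4 groups, points being libraries and lines group means. gstp1.2, prdx1, gsr, cbr1l and sqstm1 are higher in both BEZO libraries than in every DMSO library, whereas nfe2l2a is highest in the 3 libraries of 9,10-PQ.

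Stress genes downstream of Atf4 and the unfolded protein response moved in both directions with BEZO. Of 21 measured, 11 rose (1.69% of all genes) and 5 fell (1.75%) with BEZO, against 4 (2.84%) and 2 (3.38%) with 9,10-PQ. atf3, a stress-induced transcription factor, was at 111, 105 and 119 in DMSO, at 226 and 310 with BEZO and at 311, 203 and 212 with 9,10-PQ, and it was the single gene of the list that was a DEG with both (1.24 and 1.08, adjusted p = 0.000788 and 0.000934). With BEZO the genes that rose included sesn2 (1.07, adjusted p = 0.00156), a sestrin, phgdh (0.61) and psat1 (0.55), enzymes of serine synthesis, and ddit3 (0.52), the pro-apoptotic factor Chop. Those that fell were chaperones and folding enzymes of the endoplasmic reticulum: hsp90b1 (-0.54), pdia4 (-0.47), pdia6 (-0.51), calr (-0.35) and sdf2l1 (-0.72). Against the other DMSO group hsp90b1 (adjusted p = 0.087) and sdf2l1 (adjusted p = 0.152) did not pass, and calr turned positive. chac1, which degrades glutathione, rose with BEZO (0.44, adjusted p = 0.00983) and fell with 9,10-PQ (-0.29, adjusted p = 0.0477), the latter turning positive with the other DMSO group (0.31, adjusted p = 0.0406). Leaving out either BEZO library reduced the 16 BEZO calls of this list to 4.

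Of 13 p53 genes, 5 rose with BEZO (1.69% of all genes) and 1 rose with 9,10-PQ (2.84%). Among the 5 were cdkn1a, a cell cycle inhibitor (36.3 to 53.9 in DMSO, 90.2 and 98.9 with BEZO, 1.04, adjusted p = 0.0175), bbc3 (0.97) and mdm2 (0.58). Against the other DMSO group cdkn1a and mdm2 did not pass (adjusted p = 0.0792 and 0.0838). The count of 5 fell to 1 without DMSO library 2 and to 0 without BEZO library 1 or 2. cyp51, a sterol demethylase, fell with BEZO from 267 to 312 in DMSO to 141 and 151 (-0.98, SE 0.14, adjusted p = 0.000175), under each of the 19 alternatives. Of 18 cholesterol genes, 4 fell with BEZO (1.75% of all genes), cyp51 among them, and 1 rose with 9,10-PQ (2.84%). The others that fell did not hold against the other DMSO group. There hmgcs1 (-0.10, adjusted p = 0.71) and mvda (-0.32, adjusted p = 0.346) did not pass, and nsdhl turned positive (0.0314).

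Immediate early genes of the AP-1 family rose with 9,10-PQ. Of 17 measured, 5 rose with 9,10-PQ (2.84% of all genes) and 2 rose with BEZO (1.69%). fosl1a was at 8.718 to 11 in DMSO, at 128, 39.9 and 62.8 with 9,10-PQ and at 34.2 and 46.6 with BEZO, and had the highest log2 fold change of the named 9,10-PQ genes (2.67, SE 0.37, adjusted p = 0.00026). fosab was at 49.4, 56.6 and 55.5 in DMSO and at 366, 122 and 198 with 9,10-PQ (1.92, SE 0.30, adjusted p = 0.000593). fosl2 (0.76), junbb (0.74) and dusp1 (0.35), a phosphatase of MAP kinases, also rose, dusp1 not passing against the other DMSO group (adjusted p = 0.724). With lane as a block fosl2 did not pass (0.58). Among the 6 fits that left out a library, junbb passed in 2 and dusp1 in 3. In fosl1a, fosab and junbb library 1 of 9,10-PQ was the highest and library 2 the lowest. The calls of fosl1a and fosab for 9,10-PQ held under each of the 20 alternatives run. The BEZO calls of both (1.90 and 1.33) were lost with the other DMSO group.

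socs3a, a suppressor of JAK-STAT signalling, was at 43.7, 46.5 and 45.5 in DMSO, at 249, 87.0 and 206 with 9,10-PQ and at 39.8 and 77.6 with BEZO (9,10-PQ 1.84, SE 0.33, adjusted p = 0.00186). socs3b was at 127, 124 and 115 in DMSO, at 417, 229 and 435 with 9,10-PQ and at 224 and 243 with BEZO (2.83-fold, adjusted p = 7.27e-05 for 9,10-PQ). fn1b, a fibronectin of the extracellular matrix, was at 5148, 5333 and 5284 in DMSO, at 16624, 12810 and 18366 with 9,10-PQ and at 6330 and 7689 with BEZO. Its change with 9,10-PQ was 1.58 (SE 0.11, adjusted p = 1.34e-07). The calls of these 3 genes held under each of the 20 alternatives.

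bcl3, an atypical NF-kB inhibitor, rose with 9,10-PQ (1.52, adjusted p = 0.0203), as did gvin1l (2.21), a member of the very large interferon-inducible GTPase family. The call of bcl3 held in 2 of the 6 fits that left out a library. cxcl18b, a chemokine that attracts neutrophils, was at 4.36, 3.39 and 1.47 in DMSO, at 28.3, 9.07 and 27.2 with 9,10-PQ and at 17.4 and 17.6 with BEZO (2.39 and 2.26, adjusted p = 0.00196 and 0.00954). With the other DMSO group, where it was at 6.94, 12.5 and 22.2, the 9,10-PQ change was 0.58 (adjusted p = 0.418). klf10, a TGF-beta-induced zinc finger factor, rose with both exposures, from 4.36 to 6.87 in DMSO to 32.8, 23.6 and 24.6 with 9,10-PQ and 19.98 and 23.87 with BEZO, and passed with neither against the other DMSO group (adjusted p = 0.0648 and 0.242). cbx7a, a Polycomb subunit, rose with both (1.96 and 1.63). With lane as a block the 9,10-PQ changes of bcl3 (1.79), gvin1l (1.98), cxcl18b (2.30), klf10 (1.61) and cbx7a (1.61) did not pass. olfm4.1, a marker of neutrophils, rose with 9,10-PQ (1.46), and did not pass against the other DMSO group (0.91, adjusted p = 0.0817) or with lane as a block (adjusted p = 0.197). Of the 8 leukocyte markers measured 3 rose with 9,10-PQ (2.84% of all genes): lyz (1.05), mmp9 (0.90) and mpx (0.47). The summed level of that marker list was 816 to 912 with 9,10-PQ, 610 to 640 in DMSO and 680 to 715 with BEZO, and its part in the rise of the other inflammation genes was not tested.

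**Figure D3:**
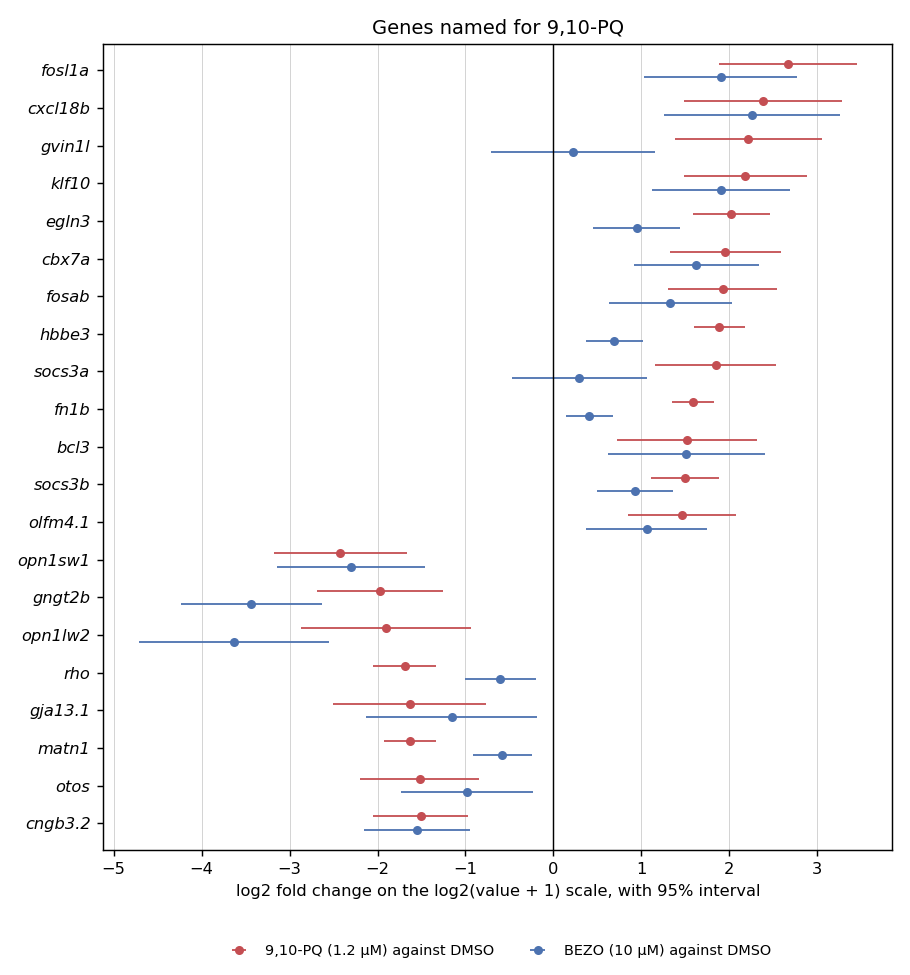
Log2 fold change against DMSO, on the log2(value + 1) scale with 95% intervals, of genes named by the rule for 9,10-PQ, for 9,10-PQ and for BEZO. fosl1a has the highest value for 9,10-PQ (2.67) and opn1sw1 the lowest (-2.42), while gvin1l and socs3a have BEZO values of 0.22 and 0.29.

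Hypoxia genes rose in part with 9,10-PQ. Of 16 measured, 5 rose with 9,10-PQ (2.84% of all genes) and 2, egln3 and p4ha1b, with BEZO (1.69%). egln3, a prolyl hydroxylase that marks Hif for decay, was at 111, 86.2 and 144 in DMSO, at 614, 323 and 480 with 9,10-PQ and at 174 and 267 with BEZO (9,10-PQ 2.02, SE 0.21, adjusted p = 1.3e-05). p4ha1b, a collagen prolyl hydroxylase, was at 99.2, 83.3 and 59.5 in DMSO and at 206, 172 and 166 (1.18, adjusted p = 0.000185), and ankrd37 rose by 1.23, passing in 2 of the 6 fits that left out a library and not against the other DMSO group (adjusted p = 0.0905). In the other DMSO group egln3 was at 320, 403 and 294, overlapping 9,10-PQ, and its change was 0.44 (adjusted p = 0.189), while p4ha1b turned negative for both exposures and egln3 for BEZO. pfkfb3 and hif1al were the other members that rose. Among the 6 fits that left out a library, pfkfb3 passed in 2 and hif1al in 4. Against the other DMSO group pfkfb3 did not pass (0.36, adjusted p = 0.198) and hif1al did (0.40, adjusted p = 0.0053).

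The heat shock genes hsp70.1 and hsp70l varied between the 9,10-PQ libraries. hsp70.1 was at 52.1, 26.2 and 42.3 in DMSO and at 490, 45.3 and 121 with 9,10-PQ, and hsp70l was at 67.7, 70.7 and 57.4 and at 381, 56.2 and 271, so that 1 library of 9,10-PQ lay within or below the DMSO range in each. Both passed (adjusted p = 0.0316 and 0.0393), and each did so in 1 of the 6 fits that left out a library. Without 9,10-PQ library 1 both changes were 0.92, with adjusted p-values of 0.18 and 0.245, and against the other DMSO group neither passed (adjusted p = 0.0789 and 0.123). With lane as a block, which rests on library 1, they were 3.89 and 3.10 (adjusted p = 6.02e-05 and 0.00197). Of 26 chaperones, 4 rose (2.84% of all genes) and 1 fell (3.38%) with 9,10-PQ. hspb1, a small heat shock protein, was at 306 to 379 in DMSO and at 441 to 503 with 9,10-PQ (0.48, adjusted p = 0.00618). The member that fell was serpinh1b, the collagen chaperone (-0.40, adjusted p = 0.00329). Neither hspb1 (0.50) nor serpinh1b (-0.20) passed with lane as a block.

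The other genes that rose with BEZO by the naming rule belonged to several systems. cyp24a1, which inactivates vitamin D, was at 5.42, 3.88 and 3.91 in DMSO, at 29.7 and 26.4 with BEZO and at 16.9, 16.3 and 19.8 with 9,10-PQ, so that neither treated group overlapped DMSO. It rose by 2.44 with BEZO (SE 0.33, adjusted p = 0.000115) and by 1.80 with 9,10-PQ (SE 0.29, adjusted p = 0.000838). igfbp1a, a secreted binding protein of insulin-like growth factors, was at 133, 139 and 153 in DMSO, at 502 and 519 with BEZO and at 333, 234 and 284 with 9,10-PQ (1.85 and 0.99, adjusted p = 3.66e-07 and 0.000339). Both BEZO calls held under each of the 19 alternatives, whereas the 9,10-PQ change of igfbp1a did not pass with lane as a block (0.66).

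ugt1a7, a glucuronosyltransferase, was at 8.888, 18.88 and 14.04 in DMSO and at 44.8 and 39.5 with BEZO (1.59, adjusted p = 0.00268). nlrc5, a regulator of antigen presentation genes, was at 13.1 to 17.1 in DMSO and at 46.4 and 50.8 (1.59, adjusted p = 0.00417), a call lost with the other DMSO group (0.88, adjusted p = 0.14). The other genes named for BEZO were expressed at low counts: kcnj1a.3 (2.26), a potassium channel, defbl3 (1.87), a beta-defensin, pth1a (1.77), parathyroid hormone, ccl34a.4 (1.54), a chemokine, and fabp1b.2 (1.49), a fatty acid binding protein. Of the 5 fits that left out a library, kcnj1a.3 and pth1a passed in 1, and defbl3, ccl34a.4 and fabp1b.2 in 2. pth1a was at 3.39 to 12.3 in DMSO and at 21.1 and 21.8 with BEZO, but at 23.3 to 30.1 in the other DMSO group.

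Glucocorticoid targets stood apart between the control groups. fkbp5, a chaperone of the glucocorticoid receptor, was at 663, 903 and 934 in DMSO, at 132 and 313 with BEZO, at 27.7 to 77.6 with 7,12-B[a]AQ and at 441, 870 and 653 with 9,10-PQ. It fell with BEZO (-2.01, SE 0.35, adjusted p = 0.00156), as did klf9 (-1.29, adjusted p = 0.0297) and tsc22d3 (-0.96, adjusted p = 0.0004). In the other DMSO group fkbp5 was at 183, 85.3 and 108, and against it the direction of all 3 turned positive, none of them passing with BEZO. Of the 11 targets measured, 2 rose (1.69% of all genes) and 3 fell (1.75%) with BEZO, and 2 rose (2.84%) and 1 fell (3.38%) with 9,10-PQ.

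Genes of the eye fell with both exposures. The photoreceptor list, which holds visual pigments and the proteins that carry their signal, had 10 measured members, of which 6 fell with 9,10-PQ (3.38% of all genes) and 4 fell with BEZO (1.75% of all genes). Its median log2 fold change was -0.74 and -0.61, and its summed level was 2012 to 2120 in DMSO, 1198 to 1567 with 9,10-PQ and 1294 and 1388 with BEZO. opn1sw1, the ultraviolet cone opsin, was at 44.8, 38.7 and 38.7 in DMSO, at 3.19, 12.7 and 7.16 with 9,10-PQ and at 7.49 and 7.39 with BEZO. The changes were -2.42 (SE 0.36, adjusted p = 0.000428) and -2.30 (SE 0.40, adjusted p = 0.00176). rho, the rod opsin, was at 260, 243 and 251 in DMSO, at 62.03, 105.2 and 70.08 with 9,10-PQ and at 186 and 146 with BEZO, where the change of -0.60 had an adjusted p of 0.102. For 9,10-PQ it was -1.69 (SE 0.17, adjusted p = 9.83e-06).

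arr3a, a cone arrestin, and crx, the homeobox factor of photoreceptors, fell with both, by 1.17 and 0.39 with 9,10-PQ and by 1.69 and 0.61 with BEZO. Among the 6 fits that left out a library, the 9,10-PQ fall of arr3a passed in 5 and that of crx in 4. gngt2b, a cone transducin subunit, was at 69.9, 49.4 and 37.9 in DMSO, at 9.58, 21.8 and 8.58 with 9,10-PQ and at 4.84 and 2.94 with BEZO (-1.97 and -3.43). opn1lw2, a red cone opsin and a close copy of opn1lw1, was at 43.01, 36.79 and 25.77 in DMSO and at 0.725 and 3.74 with BEZO (-3.63, SE 0.52, adjusted p = 0.000229). Its change with 9,10-PQ was -1.91, which passed in 2 of the 6 fits that left out a library. That change did not pass against the other DMSO group (-0.83, adjusted p = 0.288). cngb3.2, a subunit of the cone channel, fell by 1.51 with 9,10-PQ and by 1.55 with BEZO, the former not passing against the other DMSO group (adjusted p = 0.0959). Against the other DMSO group the falls of opn1sw1 with both exposures, of rho with 9,10-PQ and of gngt2b with BEZO passed the test, and that of gngt2b with 9,10-PQ did not (-0.69, adjusted p = 0.195). With lane as a block the 9,10-PQ falls of arr3a (-1.15), gngt2b (-2.02), opn1lw2 (-1.60) and cngb3.2 (-1.41) did not pass. Those of opn1sw1 (-3.10), rho (-1.50) and crx (-0.51) passed there. exorh, the opsin of the pineal organ and not of the retina, differed by -0.10 and -0.01 (adjusted p = 0.814 and 0.993).

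The gamma-crystallins of the crygm2d family, structural proteins of the fish lens, were grouped after their values were seen. Of 13 members, 10 fell with BEZO (1.75% of all genes), 7 of them lower DEGs (0.430%), and 3 fell with 9,10-PQ (3.38%). The 9,10-PQ falls of crygm2d11, crygm2d16 and crygm2d21 did not pass with lane as a block (-0.63, -0.50 and -0.15). Among the 6 fits that left out a library, crygm2d11 passed in 1 and crygm2d21 in 2. Against the other DMSO group these 3 falls passed. All 13 had negative values with BEZO and 12 with 9,10-PQ. The family median was -1.40 with BEZO and -0.31 with 9,10-PQ. crygm2d11 was at 282.5, 221.2 and 200.4 in DMSO, at 22.1 and 32.3 with BEZO and at 109, 210 and 113 with 9,10-PQ (BEZO -3.07, SE 0.24, adjusted p = 1.22e-07). crygm2d17 was at 851, 599 and 672 in DMSO and at 149 and 165 with BEZO (-2.15, SE 0.15, adjusted p = 2.98e-08), and crygm2d16 was at 521, 438 and 391 and at 107 and 103 (-2.08, SE 0.13, adjusted p = 4.67e-09). The summed level of the family was 10168 to 11721 in DMSO, 8197 to 9359 with 9,10-PQ, 4384 and 4908 with BEZO and 7468 to 10674 with 7,12-B[a]AQ. These genes are near-identical copies, so how reads were shared among them is uncertain.

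Of the 8 lens markers, which include crygm2d1 of that family, 3 fell with BEZO, or 0 without BEZO library 1 (median -0.45). They were crygm2d1 (-0.56), cryba1b, a beta-crystallin (-0.52), and bfsp2, a lens filament protein (-0.46). With 9,10-PQ 2 fell, cryba1b and bfsp2, and both passed against the other DMSO group. With lane as a block bfsp2 did not pass (-0.19) and cryba1b turned positive (0.07). The fall of cryba1b passed in 2 of the 6 fits that left out a library. The shares of all genes that fell were 1.75% with BEZO and 3.38% with 9,10-PQ. Other BEZO-lowered genes by the naming rule were sv2ba, a synaptic vesicle protein (61.0 to 86.7 in DMSO, 13.8 and 16.1 with BEZO), and cabp2a, a calcium-binding protein (31.1 to 53.7 and 8.06 and 10.2), whose call was lost with the other DMSO group (-1.12, adjusted p = 0.138). oaz2b, an ornithine decarboxylase antizyme, fell by 2.09, with a level of 7.07 to 8.52 in the other DMSO group (adjusted p = 0.645).

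**Figure D4:**
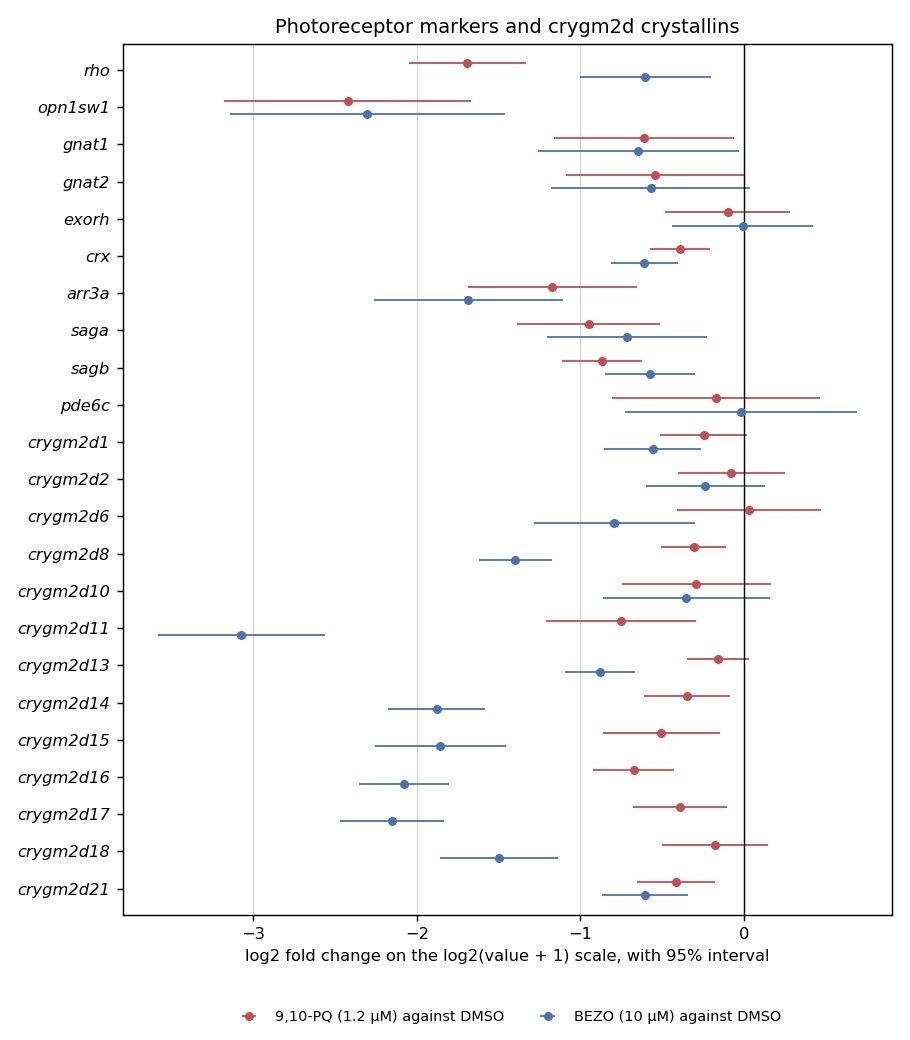
Log2 fold change against DMSO, on the log2(value + 1) scale with 95% intervals, of the 10 photoreceptor markers and 13 crygm2d crystallins for 9,10-PQ and BEZO. opn1sw1 lies at -2.42 and -2.30, while crygm2d11 lies at -3.07 with BEZO and -0.75 with 9,10-PQ.

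Cartilage matrix genes fell with 9,10-PQ. Of 9 cartilage and connective tissue markers, 5 fell with 9,10-PQ (3.38% of all genes) and 2 with BEZO (1.75%). matn1, a cartilage matrilin, was at 486, 481 and 381 in DMSO, at 122, 156 and 157 with 9,10-PQ and at 324 and 276 with BEZO (9,10-PQ -1.63, SE 0.14, adjusted p = 1.57e-06). acana, aggrecan, was at 685, 631 and 713 and at 400, 464 and 442 with 9,10-PQ (-0.63, SE 0.09, adjusted p = 0.000217). Both calls held under each of the 20 alternatives. col9a1a (-0.43), col9a2 (-0.38) and col11a2 (-0.28), collagens of cartilage, lost theirs with lane as a block and in 1 fit of all studies. col11a2 also passed in only 1 of the 6 fits that left out a library. The summed level of the list was 58277 to 62102 in DMSO, 56362 to 57336 with 9,10-PQ and 51402 and 50314 with BEZO. col1a1a, a type I collagen chain, was a DEG lower with BEZO, at 3.88 to 10.6 in DMSO and at 0 in both BEZO libraries. These levels are near the floor, so the size of that fall is uncertain. otos, an inner ear gene, and gja13.1, a connexin, were the other named genes lowered by 9,10-PQ (-1.52 and -1.63). Neither passed with lane as a block (adjusted p = 0.523 and 0.16), and gja13.1 did not pass against the other DMSO group (adjusted p = 0.0894).

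Among other tissue markers, 4 of 12 neuron markers and 5 of 15 skeletal muscle markers fell with 9,10-PQ (3.38% of all genes), while 2 of the muscle markers rose (2.84%). Those that fell included snap25b (-0.57), a synaptic protein, and acta1b (-0.62), a muscle actin. With BEZO 1 neuron marker fell (1.75% of all genes). Of 7 red blood cell markers, 3 fell with BEZO (1.75% of all genes): hbae3 (-0.94) and hbbe1.1 (-0.99), embryonic globins, and cahz (-0.56), a carbonic anhydrase. The calls of hbbe1.1 and cahz were lost with the other DMSO group (adjusted p = 0.0695 and 0.135). hbbe3, another beta globin, moved the other way. It was at 74.7, 88.1 and 96.0 in DMSO, at 314, 288 and 361 with 9,10-PQ and at 136 and 143 with BEZO (1.89, SE 0.14, adjusted p = 1.34e-07 for 9,10-PQ and 0.69, adjusted p = 0.013 for BEZO), and the 9,10-PQ call held under each of the 20 alternatives.

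The matched-dose pair was BEZO and 7,12-B[a]AQ, both at 10 µM and 48 hpf, which differ by a single ketone against a quinone as well as in the layout of the rings. This was 1 of 2 direct pairs tested, and p-values were adjusted over all genes of both pairs. It gave 118 DEGs (0.540% of genes), 32 higher and 86 lower in BEZO, or 59 without BEZO library 2. At an adjusted p under 0.05, 2.10% of genes differed (0.988% higher and 1.12% lower in BEZO), and 29.0% did not overlap. The genes lowest in BEZO were AHR-linked. cyp1a was 58.9-fold lower in BEZO than in 7,12-B[a]AQ (log2 -5.88, 95% interval -6.17 to -5.59), cyp1c1 and cyp1c2 were each 12.2-fold lower and ahrra 10.0-fold lower. ahrrb, its paralog, was at 46.7, 27.7 and 65.8 with 7,12-B[a]AQ and at 8.62 and 11.8 with BEZO (-2.02, adjusted p = 0.0163). fgf7, a fibroblast growth factor, was at 333, 339 and 331 with 7,12-B[a]AQ, at 16.5 and 20.5 with BEZO and at 18.93 to 26.03 in DMSO, with 1 BEZO library inside the DMSO range and 1 below it. wfikkn1, a protease inhibitor, was at 85.0, 66.3 and 40.9 and at 7.01 and 7.39 with BEZO. slincR was at 698 to 1014 with 7,12-B[a]AQ (BEZO -2.33, adjusted p = 9.64e-09).

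The Nrf2 group was also lower in BEZO, by less. Of 31 genes, 8 were lower (1.12% of all genes) and 23 did not pass. gstp1.2 was at 6338, 7013 and 6526 with 7,12-B[a]AQ (BEZO -0.99, 95% interval -1.16 to -0.82), prdx1 at 1577, 1453 and 1595 (-0.83, 95% interval -1.03 to -0.62) and sqstm1 at 949 to 970 (-0.93, 95% interval -1.15 to -0.70). For several genes raised against DMSO by BEZO no difference from 7,12-B[a]AQ passed: atf3 (0.03, 95% interval -0.39 to 0.45), cyp24a1 (0.13, 95% interval -0.55 to 0.81), nfe2l2b (-0.20, 95% interval -0.74 to 0.34) and gclc (-0.16, 95% interval -0.35 to 0.04). These intervals leave room for differences of up to 0.81 on the log2 scale.

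Higher in BEZO were c3a.3 (1.70, 95% interval 1.48 to 1.92) and c4b (1.43, 95% interval 1.22 to 1.64), complement components of the liver, gc (2.03), the vitamin D binding protein, fkbp5 (1.90), klf9 (1.67), rhcga (2.18), an ammonia transporter of ionocytes, clcn2c (1.58), a chloride channel, and enam (1.51), enamelin. c3a.3 was at 843 and 876 with BEZO and at 662 to 830 in DMSO, and at 244 to 294 with 7,12-B[a]AQ. The crystallins were lower in BEZO than in 7,12-B[a]AQ: 9 of the 13 crygm2d genes (1.12% of all genes), 8 of them lower DEGs (0.394%), with crygm2d17 at -1.89 (95% interval -2.21 to -1.57). gngt2b was lower too (-2.54), as was soul5l (-2.36), a heme-binding protein that ranged from 28.7 to 146 within DMSO.

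**Figure D5:**
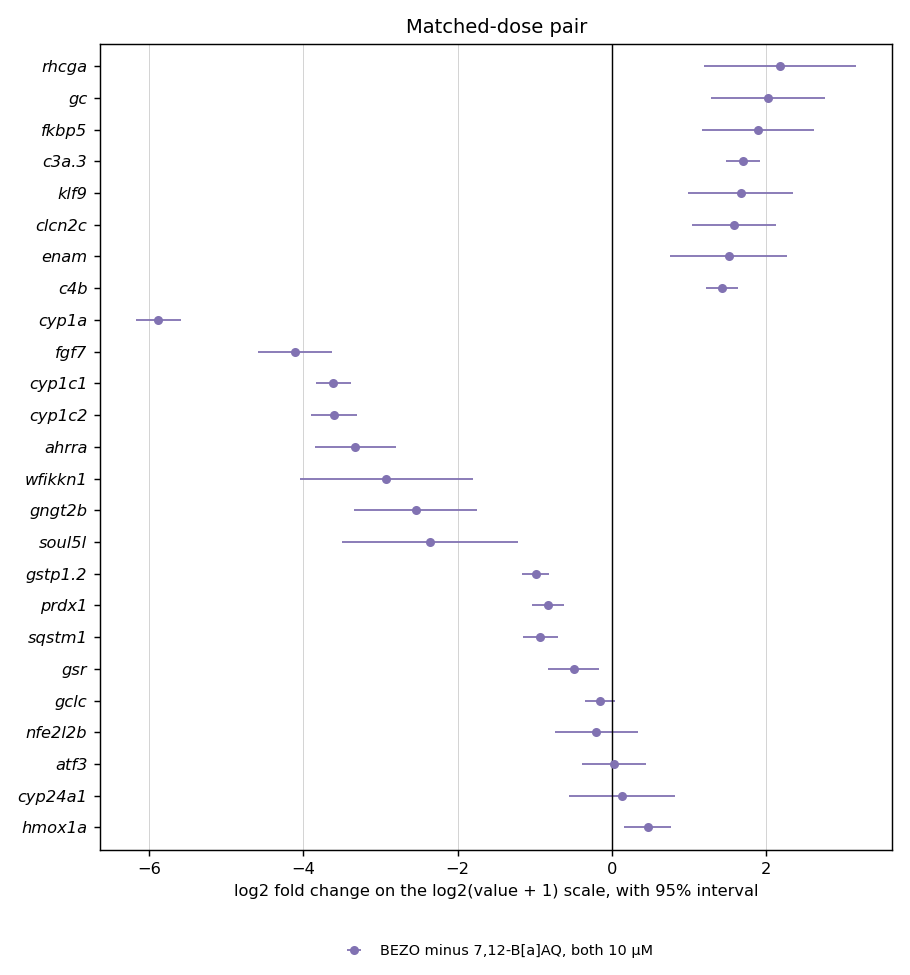
Log2 fold change of BEZO over 7,12-B[a]AQ, both at 10 µM, on the log2(value + 1) scale with 95% intervals, for the 16 genes of the naming rule and 9 stress genes. cyp1a lies at -5.88 and gstp1.2 at -0.99, while the intervals of atf3, cyp24a1, nfe2l2b and gclc cross 0.

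9,10-PQ and BEZO were given at different doses, 1.2 and 10 µM, so that a direct contrast compares these exposures and not the compounds. It gave 99 DEGs (0.453% of genes), 67 higher and 32 lower with 9,10-PQ, or 55 without BEZO library 1. The higher DEGs were 0.307% and the lower 0.146% of genes, 3.68% passed at an adjusted p under 0.05 (1.56% higher and 2.12% lower), and 37.5% did not overlap. Each of the 99 also sets lanes 2 and 3 against lane 1, and with lane as a block there were 411 DEGs (83 higher, 328 lower), 42 of them among the 99. Higher with 9,10-PQ were muc5.2, a mucin (421, 486 and 464 with 9,10-PQ, 109 and 122 with BEZO, 290 to 301 in DMSO), crygm2d11 (2.32), gjc4a.2 (2.97), a connexin, rhcga (2.56), slc5a1 (2.17), a sodium-glucose transporter, mgarpb (2.01), gvin1l (1.99) and urgcp (1.97), of which slc5a1, gvin1l and urgcp did not pass with lane as a block. muc5.2 rose with 9,10-PQ and fell with BEZO against the same DMSO libraries (0.63 and -1.34).

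Lower with 9,10-PQ were slc34a1a, a phosphate transporter (-2.58), sdr42e2 (-1.99), tecrl2b (-1.72), mbpa, myelin basic protein (-1.67), hamp, the iron hormone hepcidin (-1.66), gc (-1.47), map7a (-1.46) and ahrra (-1.43). With lane as a block 7 of these 8 lost the call (adjusted p = 0.0783 to 0.524), the exception being sdr42e2 (adjusted p = 0.0197). mbpa was at 14.6, 12.7 and 13.8 with 9,10-PQ, at 46.4 and 44.8 with BEZO and at 30.0 to 58.0 in DMSO. Of the 31 Nrf2 genes, 1 was higher (1.56% of all genes) and 9 were lower (2.12%) with 9,10-PQ, with gstp1.2 at -1.05 and nfe2l2a at 0.53. With lane as a block, which rests on 9,10-PQ library 1, most of these lower genes lost the call. They were keap1a (-0.78), keap1b (-0.21), gsr (-1.01), tktb (-0.22), cbr1l (-0.60) and sqstm1 (-0.45). For cyp1c2 (-0.07, 95% interval -0.37 to 0.23), opn1sw1 (-0.12, 95% interval -0.96 to 0.72) and klf10 (0.28, 95% interval -0.50 to 1.06) no difference between the exposures passed the test, which does not show that they act alike.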

How the data were processed

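RNA from whole zebrafish embryos at 48 hpf was sequenced as 50 bp reads. Per the study's methods, the authors aligned reads with STAR to GRCz11, counted them with HTSeq and normalized them with DESeq2. The authors deposited log2 values, which the numbers themselves showed to follow that tool's variance stabilizing transformation over all 170 entries, a step that the sources used here do not state. They were inverted to normalized counts, and 100% of 3715180 values came back as whole reads within 0.05. Tests were planned for normalized values, so they ran on the inverted ones, with the deposited log2 values as an alternative. Entries of 1 lane and index were averaged, since they differed by no more than sampling noise (variance ratio 0.977 to 1.06 in 16 pairs, against 1.54 to 4.33 in 10 pairs of different libraries). Shallow and deep entries then count alike.

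limma 3.58.1 (trend, R 4.3.3) was fitted to log2(value + 1) of the 11 libraries of the PE50_BG study, two-sided, without a filter, with Benjamini-Hochberg adjustment over 21854 genes per DMSO comparison and over both direct pairs together. Tested on simulated data for 9,10-PQ against DMSO with 21854 genes, it recovered 100% of 4-fold and 84% of 2-fold changes. For BEZO against DMSO it recovered 99% and 74%. The changed genes had a mean of at least 20, every gene had the same dispersion, and recovery meant an adjusted p under 0.05 in the right direction. These shares therefore do not cover genes at lower counts or with more spread between libraries.

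Genes were named by a rule: DEGs with a symbol, a mean of at least 20 in 1 group and libraries that did not overlap, the 14 highest and 8 lowest against DMSO and 8 each way for a pair, plus list members that were DEGs and a fixed set of AHR and antioxidant genes. Members and lists were chosen with earlier results of these data known. Symbols came from a RefSeq table of GRCz12tu for 20411 genes, so no positions are given. Promoter motifs were not analysed here, and 1 gene that the rule names is not reported here.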

Additional observations from a re-analysis of the deposited data

How the results depend on the processing

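For 9,10-PQ against DMSO the 144 DEGs became 35 in 1 fit of all studies, 364 with lane as a block (73 higher, 291 lower), 230 with each entry as a replicate and 579 with the other DMSO group. Of the 364, 38 were among the 144. Leaving out 1 library gave 90 to 176. For BEZO against DMSO the 173 became 71 in 1 fit of all studies, 408 with the other DMSO group (264 higher) and 92 with both DMSO groups pooled, and 99 to 169 with a library left out. 9,10-PQ against BEZO gave 35 in 1 fit of all studies, 411 with lane as a block and 55 to 96 with a library left out, and BEZO against 7,12-B[a]AQ gave 38 in 1 fit of all studies and 59 to 136. The causes of these differences were not tested. Depth-weighted averaging, added after seeing the data, stayed within 1.5 times of each count.

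Listed here are log2 fold changes that changed sign and passed in the main fit, the alternative or both. For 9,10-PQ they were chac1 (0.31), ddit4 (-0.0486), p4ha1b (-0.34) and tsc22d3 (0.71) with the other DMSO group, chac1 (0.0124) and tsc22d3 (0.0576) with the pooled groups, and asns (-0.0627), cryba1b (0.0725) and hbbe1.1 (0.0785) with lane as a block. For BEZO, all with the other DMSO group, they were pth1a (-0.31), calr (0.0299), ddit4 (-0.39), hsp90aa1.1 (0.13), egln3 (-0.64), p4ha1b (-0.67), fkbp5 (0.77), tsc22d3 (0.35), klf9 (0.33) and nsdhl (0.0314). Of the other values of named genes and list members, 4591 kept their side of the threshold, 916 lost the call and 23 gained it. Sign changes that passed in neither fit are among the 4591. The library numbers gave no sign of pairing: across 15 same-numbered pairs the correlation of deviations was -0.0527 to 0.0607. With 2 or 3 libraries per group these values cannot exclude it. With the number as a replicate block the counts were 153, 174, 107 and 122 in the order above. Of the genes named by the ranking rule, 7 of 22 for 9,10-PQ, 7 of 22 for BEZO, 2 of 16 for 9,10-PQ against BEZO and 7 of 16 for BEZO against 7,12-B[a]AQ kept their call under every alternative run. With 2 BEZO libraries and a shallow 9,10-PQ library, genes at low counts are the least certain.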
